A study of Homo sapiens with 6 samples.

Results

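ISG15, the enzymes that attach it to and remove it from proteins, and the 6 HERC genes were followed in MDA-MB-453 cells, a long-established line from a human breast carcinoma. The genes were chosen by symbol, with earlier results of these data in view: ISG15, UBA7, UBE2L6, USP18 and HERC1 to HERC6, which are 10 of the 60569 gene names in the deposited table. All 10 had a row, and all 10 were among the 13185 genes with an FPKM value (sequenced fragments scaled by transcript length and by library size) of at least 1 in 3 or more libraries. RNA sequencing had been done on 3 libraries from cells given a control vector and 3 from cells given a construct for overexpression of ZNF207. ZNF207 (BuGZ) is known for its work in mitosis, where it associates with spindle microtubules and helps to load BUB3. Both groups are the same line and differ by the construct alone, per the labels. Nothing in the sources used here gives the promoter of the construct, whether expression was transient or stable, or the time to harvest. The design text describes the libraries of a group as biological replicates made independently.

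ISG15 is a ubiquitin-like protein induced by interferon, and it is joined to lysines of other proteins by a chain of enzymes like the one used for ubiquitin. UBA7 is the activating enzyme (E1), UBE2L6 the conjugating enzyme (E2), and HERC5 the main ligase (E3) in human cells, while USP18 takes ISG15 off again and also dampens signalling from the type I interferon receptor. HERC proteins combine a HECT ligase domain with repeats like those of RCC1, a chromatin-bound exchange factor. HERC1 and HERC2 are giant ligases outside the classic interferon response, and HERC3 to HERC6 are the small ones, of which HERC5 and HERC6 are interferon-induced. In mouse, which lacks Herc5, Herc6 is the ISG15 ligase.

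The longest annotated coding sequences place the family in these classes (GENCODE v29, GRCh38). That of HERC1 encodes 4861 residues and that of HERC2 encodes 4834. The small members run from 1022 residues in HERC6 to 1057 in HERC4. HERC6 lies on the plus strand of chromosome 4 at chr4:88378739-88443111. HERC5 follows at chr4:88457117-88506163, after a gap of 14005 bases, and HERC3 after a further 86259 bases at chr4:88592423-88708542. HERC4 is on chromosome 10 (chr10:67921899-68075348), and HERC1 (chr15:63608618-63833942) and HERC2 (chr15:28111040-28322152) are on chromosome 15, all 3 on the minus strand. ISG15 is at chr1:1001138-1014540 on the plus strand, UBA7 at chr3:49805207-49813946 on the minus strand, UBE2L6 at chr11:57551656-57568284 on the minus strand and USP18 at chr22:18149899-18177397 on the plus strand.

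Sequence before the RefSeq start of 4 genes is shown because the interferon-induced HERC neighbours differed in it, with ISG15 and the giant ligase HERC2 beside them. The sequences are RefSeq promoters on build GRCh38.p14, each a stretch of 100 bases that touches no annotated exon. Capitals mark matches to the core of the interferon-stimulated response element, GAAANNGAAA, searched on both strands with overlapping matches counted. The ISG15 stretch is chr1:1013321-1013420 (plus strand), the HERC5 stretch chr4:88456969-88457068 (plus), the HERC6 stretch chr4:88378639-88378738 (plus) and the HERC2 stretch chr15:28322230-28322329 (minus).
ISG15: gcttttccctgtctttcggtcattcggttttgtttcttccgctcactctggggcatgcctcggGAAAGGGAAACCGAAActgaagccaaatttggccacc
HERC5: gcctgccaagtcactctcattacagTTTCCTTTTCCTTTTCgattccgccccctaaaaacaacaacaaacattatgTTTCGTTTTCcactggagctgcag
HERC6: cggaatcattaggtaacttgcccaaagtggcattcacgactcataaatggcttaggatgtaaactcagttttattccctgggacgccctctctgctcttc
HERC2: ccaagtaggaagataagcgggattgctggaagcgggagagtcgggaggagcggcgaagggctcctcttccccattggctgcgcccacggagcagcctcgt

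The ISG15 promoter held 2 overlapping matches, beginning 113 and 107 bases before the annotated start. HERC5 held 3, beginning 125, 119 and 74 bases before its start, of which the upper pair overlap. None of these letters occurred in the HERC6 window of 250 bases before to 50 after the start, nor in the windows of HERC1, HERC2, HERC3, HERC4 and UBE2L6. The GENCODE gene of HERC6 begins directly after the stretch shown, inside this window. Fewer bases before that gene start were therefore searched than for HERC5. The UBE2L6 windows lay wholly inside its GENCODE gene, so no base before that gene start was searched. Such a match was present in 3.57% of all 35116 promoter rows, in 23 of the 33 other interferon-induced genes with a row (69.7%), and in 0 of 19 other HECT ligases. The first share is per row and the others are per gene, where a match in any row of the gene counted. The core of the gamma-activated site, TTCNNNGAA, which reads the same on both strands, was in no window of these 8 genes and in 7.66% of all promoter rows. UBA7 and USP18 had no row. A match is a run of letters, not a measured binding site.

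**Figure D1:**
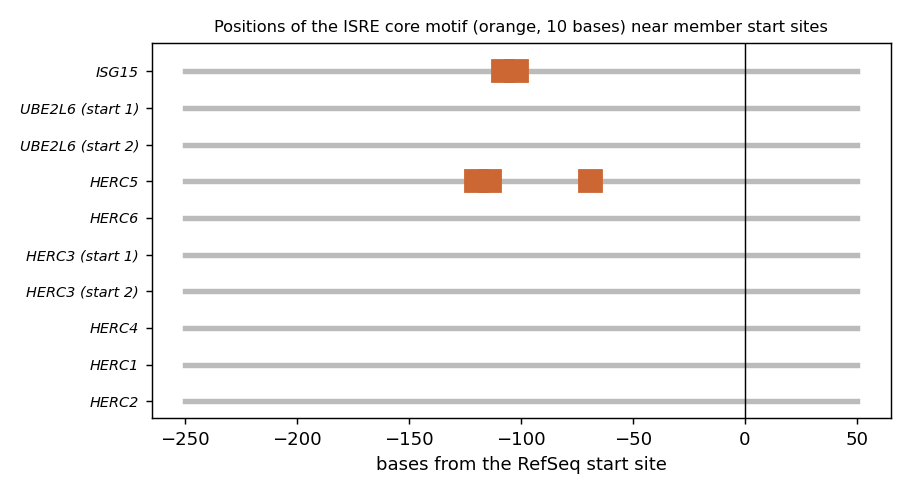
Positions of the interferon-stimulated response element core in the promoter windows of the 8 genes with a RefSeq row. The x axis is the distance in bases from the annotated start; UBE2L6 and HERC3 have 2 starts each. Marks appear for ISG15 and HERC5 and for no other gene shown.

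The construct's own gene checked the labels. ZNF207 stood at 69.2, 67.0 and 63.7 FPKM in the control libraries and at 885.0, 785.6 and 750.04 in the ZNF207 libraries, 12.1 times the control mean. The libraries held 13061 to 13231 genes at 1 FPKM or more. The 8 luminal and apocrine markers of the line (among them GATA3, FOXA1 and ERBB2) were all at 1 FPKM or more in every library. None of the 6 immune markers reached 1 FPKM in all libraries: their summed level was 1.26 to 1.70 in controls and 1.24 to 1.97 in ZNF207 libraries, and PTPRC was at 0 in the controls. Basal markers summed to at most 0.360 and endothelial markers to at most 0.525 FPKM. Of 3 fibroblast markers only COL1A1 passed 1 FPKM, and the fibroblast sum was 9.30 to 11.3 in controls and 8.02 to 9.94 with the construct. In bulk RNA, fewer cells that express a gene and less RNA per cell cannot be told apart.

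All 10 genes were expressed at 1 FPKM or more in all 6 libraries. By control mean the order was ISG15 (1167 FPKM), UBE2L6 (128.9), USP18 (61.9), HERC6 (38.2), HERC4 (25.6), HERC5 (14.6), HERC1 (13.3), HERC2 (6.38), HERC3 (6.31) and UBA7 (4.17). FPKM is a level per transcript length, so genes can be set beside each other on it. Control ranges overlapped between HERC5 and HERC1 and between HERC2 and HERC3, and between no other neighbours in that order. In the ZNF207 libraries HERC5 and HERC1 no longer overlapped, whereas the range of HERC3 met those of HERC2 and UBA7. Among the 10 genes, the activating enzyme thus had the lowest control mean and the modifier the highest. HERC6, not HERC5, was the most abundant HERC transcript in every library.

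Of the 10 genes, HERC6 alone passed the test across all genes (limma on log2(FPKM + 1), Benjamini-Hochberg adjustment over 13185 genes, threshold 0.05), where 28 genes (0.212%) were called in either direction and 7 (0.0531%) were called higher. In 5 of the 10 genes, all ZNF207 libraries lay above all controls, against 1004 of all tested genes (7.61%). In 0 of the 10 did all lie below, against 1365 (10.4%). These genes were selected on this same contrast, so nothing is read from these counts, and the values that follow are a description without tests. Estimates were above 0 for 8 of the 10, and their median was 0.19 on the log2(FPKM + 1) scale, beside −0.01 for all tested genes. A change on this scale understates that of low genes.

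**Figure D2:**
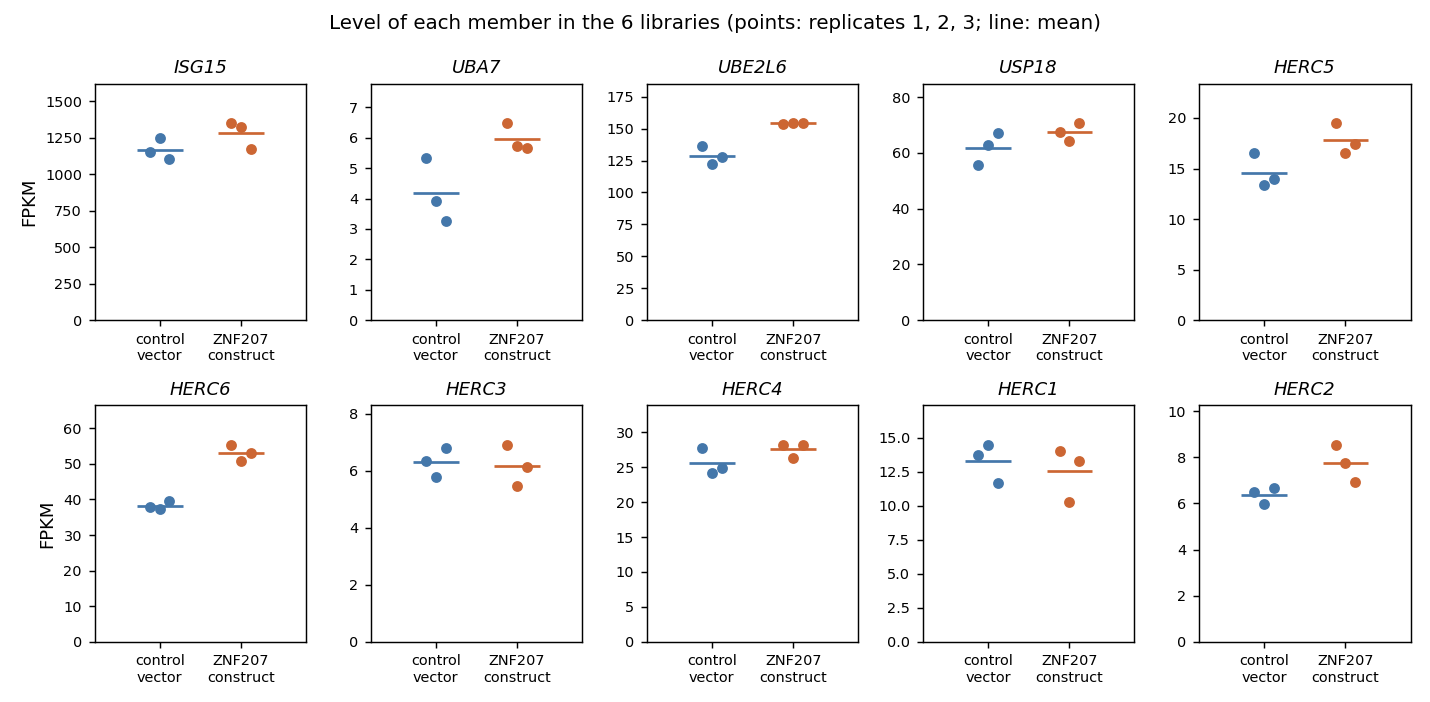
FPKM of the 10 genes in each of the 6 libraries, 1 panel per gene, with the libraries of each group as points and the group mean as a line. The HERC6 groups are 11.3 FPKM apart, while those of ISG15, USP18, HERC1, HERC3 and HERC4 overlap.

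ISG15 itself was at 1149.5, 1248 and 1105 FPKM in the control libraries and at 1351, 1326 and 1172 with the construct. The lowest ZNF207 library fell inside the control range, so the groups overlapped. The mean was 1283 ± 96.6 (SD, n = 3) against 1167 ± 73.2 (SD, n = 3), a ratio of 1.1. The difference was 0.14 on the log2 scale (SE 0.0721, 95% interval −0.03 to 0.30). It was 0.22 with quantile scaling of the libraries, and without single libraries it ran down to 0.10. In the control libraries ISG15 was already among the most abundant interferon genes, with 3 of the 39 other tested interferon-induced genes at a higher control mean.

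UBA7, the E1 that activates ISG15, was at 5.33, 3.91 and 3.27 FPKM in controls and at 6.49, 5.72 and 5.65 with the construct. The groups were apart, but by 0.318 FPKM only, because control library 1 was close to the ZNF207 libraries. The control values varied most of the set, with a coefficient of variation of 25.3% against 7.8% in the ZNF207 group. The ratio of means was 1.43, and the log2 difference 0.44 (SE 0.148, 95% interval 0.11 to 0.78).

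UBE2L6, the E2 that carries ISG15 to the ligase, was at 136.7, 122.2 and 127.7 FPKM in controls and at 153.8, 154.3 and 154.4 with the construct. The ZNF207 libraries were nearly equal, with a coefficient of variation of 0.198%, and all lay 17.1 FPKM or more above the highest control. The ratio was 1.2 and the log2 difference 0.26 (SE 0.0543, 95% interval 0.14 to 0.38). Its level exceeded that of UBA7 by a factor of 32.0 ± 6.76 (SD, n = 3) in controls and 26.0 ± 1.99 (SD, n = 3) with the construct, with overlapping ranges.

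USP18, the protease that removes ISG15, was at 55.6, 62.9 and 67.3 FPKM in controls and at 67.5, 64.3 and 70.8 with the construct. One ZNF207 library lay below the highest control, and the groups overlapped. The log2 difference was 0.13 (SE 0.0753, 95% interval −0.04 to 0.30), and it was 0.05 without control library 1, the lowest. The ratio of ISG15 to USP18 was 20.7, 19.9 and 16.4 in controls and 20.0, 20.6 and 16.6 in ZNF207 libraries. That ratio varied within each group and hardly between them.

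HERC5, the main human ISG15 ligase, was at 16.5, 13.3 and 13.9 FPKM in controls and at 19.5, 16.6 and 17.4 with the construct. The groups were apart by 0.0777 FPKM, the narrowest gap among the 5 genes whose groups did not meet. The ratio of means was 1.22 (17.8 ± 1.50 against 14.6 ± 1.68, SD, n = 3 each) and the log2 difference 0.28 (SE 0.0963, 95% interval 0.06 to 0.49).

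HERC6, the neighbour and closest relative of HERC5, was at 37.8, 37.2 and 39.6 FPKM in controls and at 55.4, 50.9 and 53.0 with the construct. It rose in all ZNF207 libraries, and the lowest of them stood 11.3 FPKM above the highest control. The mean went from 38.2 ± 1.26 to 53.1 ± 2.22 (SD, n = 3 each), a ratio of 1.39. The log2 change was 0.46 (SE 0.0582, 95% interval 0.33 to 0.59), and 114 of the tested genes (0.865%) had a larger increase. The estimate stayed between 0.43 and 0.49 in all 17 alternative analyses. The call itself was lost in 5 of them: with no filter on low genes, without the variance trend, and without control library 2, ZNF207 library 1 or ZNF207 library 3.

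HERC3 and HERC4, the small relatives outside the classic interferon response, had overlapping groups. HERC3 was at 6.34, 5.79 and 6.79 FPKM in controls and at 6.91, 5.45 and 6.14 with the construct, a log2 difference of −0.03 (SE 0.11, 95% interval −0.28 to 0.22). Its sign changed without control library 3 (0.02) and without ZNF207 library 2 (0.04). HERC4 was at 27.8, 24.2 and 24.9 FPKM in controls and at 28.1, 26.4 and 28.2 with the construct, a log2 difference of 0.10 (SE 0.0712, 95% interval −0.06 to 0.26), or 0.16 without control library 1 and 0.067 without control library 2.

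HERC1, a giant ligase of the cytoplasm, was at 13.8, 14.5 and 11.7 FPKM in controls and at 14.0, 10.3 and 13.3 with the construct. The lowest value of all was ZNF207 library 2, and the log2 difference of −0.08 (SE 0.122, 95% interval −0.36 to 0.19) was 0.04 without it. HERC2, a giant ligase of the DNA damage response, was at 6.48, 5.99 and 6.67 FPKM in controls and at 8.55, 7.75 and 6.91 with the construct. Its groups were apart by 0.247 FPKM, with a log2 difference of 0.24 (SE 0.102, 95% interval 0.01 to 0.47). The intervals of HERC1 and HERC2 overlap, and their difference from each other was not tested.

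**Figure D3:**
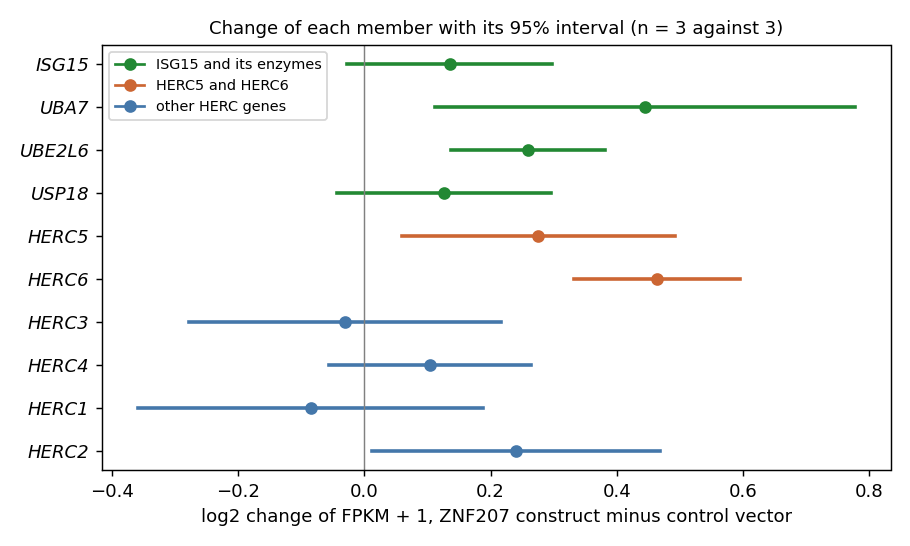
Log2 change on the log2(FPKM + 1) scale, ZNF207 construct minus control, for the 10 genes, as points with 95% intervals from limma, coloured by class. HERC6 lies at 0.46 with an interval of 0.33 to 0.59, and the intervals of ISG15, USP18, HERC1, HERC3 and HERC4 include 0. The intervals are per gene, without adjustment over genes, and HERC6 alone was called.

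HERC2 has several partial copies, and RNA reads that fall in them may be assigned to either gene; how shared reads were assigned is not given in the sources used here. HERC2P9 matched its transcript at 97.9% over 4703 bases, HERC2P2 at 97.2% over 4453 and HERC2P3 at 95.2% over 2280, of 15337 bases in the HERC2 transcript compared. The 3 copies had log2 differences of −0.01, 0.06 and 0.19 in that order, none called; the last was 0.31 with a pseudocount of 0.1 and 0.36 without ZNF207 library 3. HERC2P2 was at 6.02, 5.09 and 4.31 FPKM in controls and at 5.51, 5.47 and 5.16 with the construct. The HERC2 value is uncertain to that extent. USP18 matched USP41 at 98.7% over 917 bases, but USP41 was at 0.131 to 0.406 FPKM in the 6 libraries. HERC5 and HERC6 matched each other at 73.8% over 1851 bases. Each row also names a locus, which 6 of the 10 genes share with other rows; HERC5, HERC6, UBE2L6 and USP18 do not.

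The interferon-induced small HERCs were set against the large ones within each library, so that a library-wide scale factor drops out apart from the pseudocount. The mean log2(FPKM + 1) of HERC5 and HERC6 exceeded that of HERC1 and HERC2 by 1.31, 1.17 and 1.32 in controls and by 1.51, 1.60 and 1.57 with the construct. The ranges did not meet, and the group means of 1.27 ± 0.0843 and 1.56 ± 0.0489 (SD, n = 3 each) were 0.29 apart. Against HERC3 and HERC4 the excess was 0.842, 0.841 and 0.795 in controls and 1.16, 1.19 and 1.13 with the construct, a shift of 0.33. By class, the mean log2 difference was 0.37 for HERC5 and HERC6, 0.04 for HERC3 and HERC4, 0.08 for HERC1 and HERC2, and 0.24 for ISG15 with its 3 enzymes. The HERC6 estimate (0.46) was larger than that of HERC5 (0.28), and their intervals overlapped. Of the large HERCs, HERC2 was at 0.24, close to HERC5, and HERC1 at −0.08, or 0.04 without ZNF207 library 2. The shift of 0.29 is therefore not one between uniform classes.

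The HERC transcripts together summed to 108.6, 101.0 and 103.6 FPKM in controls and to 132.5, 117.4 and 125.0 with the construct. HERC6 made up 34.8, 36.9 and 38.3% of that sum in controls and 41.8, 43.4 and 42.4% in ZNF207 libraries. The mean share of HERC1 was 12.8% in controls and 9.99% with the construct, that of HERC4 24.5% and 22.1%, and that of HERC5 13.9% and 14.3%. HERC6 thus took a larger share of the family while HERC5 held about the same one.

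**Figure D4:**
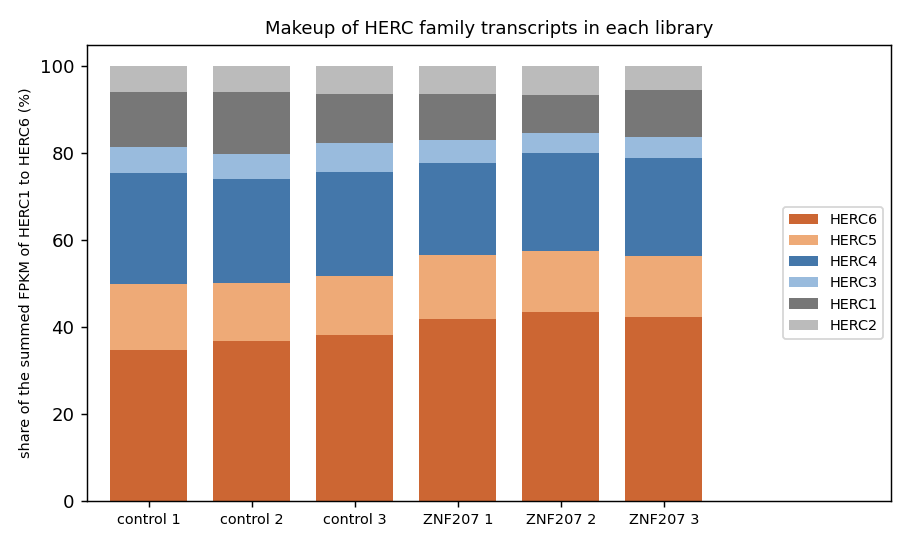
Share of each HERC gene in the summed FPKM of HERC1 to HERC6, in percent, for each of the 6 libraries. The HERC6 share is 34.8 to 38.3% in the control libraries and 41.8 to 43.4% in the ZNF207 libraries.

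Ratios of HERC6 to other genes of the set follow from the changes given above and are no separate evidence. HERC6 over USP18 was 0.680, 0.592 and 0.589 in controls and 0.820, 0.793 and 0.749 with the construct. HERC6 over UBE2L6 was 0.276, 0.305 and 0.310 in controls and 0.360, 0.330 and 0.343 with the construct. Neither pair of ranges met, nor did those of HERC6 over ISG15 or HERC6 over HERC4. HERC6 over HERC5 was 2.29, 2.79 and 2.85 in controls and 2.84, 3.07 and 3.04 with the construct, and these ranges met, control library 3 lying just above ZNF207 library 1. On the log2(FPKM + 1) scale the HERC6 level minus the HERC5 level was 1.15 to 1.44 in controls and 1.46 to 1.56 with the construct, ranges that just miss each other, so whether HERC6 stands apart from HERC5 turns on the pseudocount.

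Interferon genes outside the set were taken from lists, none of which had a called gene in limma with adjustment over all tested genes; at an unadjusted p under 0.05, 670 of all tested genes were higher and 927 were lower. The lists were chosen with earlier results of these data known, so nothing is read from their counts. Over all tested genes, all ZNF207 libraries lay above all controls in 7.61% and below them in 10.4%. Interferon transcripts were present without any added interferon in the labels. IFNB1, the type I interferon made by epithelial cells, was at 29.5, 22.8 and 22.4 FPKM in controls and at 37.8, 39.1 and 30.8 with the construct, a log2 difference of 0.51 (limma adjusted p = 0.125). IFNL2, a type III interferon, was at 46.4, 36.0 and 34.7 FPKM in controls and at 63.7, 62.5 and 55.3 with the construct, a log2 difference of 0.63 (SE 0.106, limma adjusted p = 0.0548). Its value is uncertain, since IFNL2 and IFNL3 are near-identical copies. All 4 tested ligands had estimates above 0 (median 0.52), and the groups were apart in 3, IFNL1 being the exception. IFNK was at 0 in all libraries, and IFNA1, IFNE and IFNG were below 0.3 FPKM.

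The receptors, kinases and transcription factors that relay interferon signals showed smaller differences: of 19 tested, 11 had estimates above 0 and 8 below, with a median of 0.06 (−0.01 without control library 1). IRF1, an interferon-induced transcription factor, was at 34.7, 31.9 and 34.1 FPKM in controls and at 38.5, 36.7 and 38.2 with the construct (log2 difference 0.17, limma adjusted p = 0.305). All ZNF207 libraries lay above all controls in 3 of the 19, beside 7.61% of all tested genes.

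Among 39 tested interferon-induced genes outside the set, 36 had estimates above 0, the median was 0.22, and all ZNF207 libraries lay above all controls in 28. Such a separation was seen in 7.61% of all tested genes. At an unadjusted p under 0.05, 27 were higher and 0 lower. RSAD2 (viperin), an antiviral enzyme, had a log2 difference of 0.64 (SE 0.117, limma adjusted p = 0.0714), and OASL, an antiviral relative of the oligoadenylate synthetases, one of 0.41 (SE 0.0779, limma adjusted p = 0.0786). HERC6 was not the most changed by size: 5 of the 39 had a larger estimate, while 7 had a smaller SE. For UBA7, 6 of the 39 had a larger estimate, for HERC5 15, for UBE2L6 17, and for ISG15 and USP18 27 each. The UBA7 estimate is a loose one, since 37 of the 39 had a smaller SE. In the main analysis ISG15 (0.14) lay below the median of the 39 (0.22), as it did after rescaling to TPM (0.15 against 0.24). With quantile scaling it lay close to that median (0.22 against 0.23). The 22 of these genes with the response element core in the promoter had a median log2 difference of 0.19, and the 10 with a promoter row but no match one of 0.31, a difference that was not tested.

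Other enzymes of protein modification were closer to 0. Of 9 further enzymes and binders linked to ISG15, 5 had estimates above 0 (median 0.04). RNF213, a giant ligase that binds ISG15, had a log2 difference of 0.16 (limma adjusted p = 0.401), or 0.10 without control library 2. UBE2E2, a further E2, had one of −0.29 (limma adjusted p = 0.443), which was −0.14 without control library 1 and −0.44 without control library 2. Of 21 other HECT ligases, 12 had estimates above 0 (median 0.02). All ZNF207 libraries lay above all controls in 1 of the 21, beside 7.61% of all tested genes. HECW2 (log2 difference 0.50, limma adjusted p = 0.385) was the only one with a larger estimate than HERC6, HERC5 or HERC2. That value rests on ZNF207 library 1 (4.06 FPKM, beside 1.82 and 2.67 in the other ZNF207 libraries). Without that library the HECW2 difference was 0.28, below that of HERC6 (0.43) in the same fit. It was still above those of HERC5 (0.21) and HERC2 (0.17). WWP2 had a log2 difference of 0.14 (limma adjusted p = 0.474).

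The enzymes and modifiers of the other ubiquitin-like systems (24 tested) had a median of 0.01, with 15 estimates above 0. SUMO3, a modifier, had a log2 difference of 0.22 (limma adjusted p = 0.239). Of 10 tested genes with RCC1-like repeats, 8 had estimates above 0 (median 0.03) and the groups were apart in 0. IBTK had a log2 difference of 0.12 (limma adjusted p = 0.585), or 0.069 without control library 2 and 0.065 without ZNF207 library 3.

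**Figure D5:**
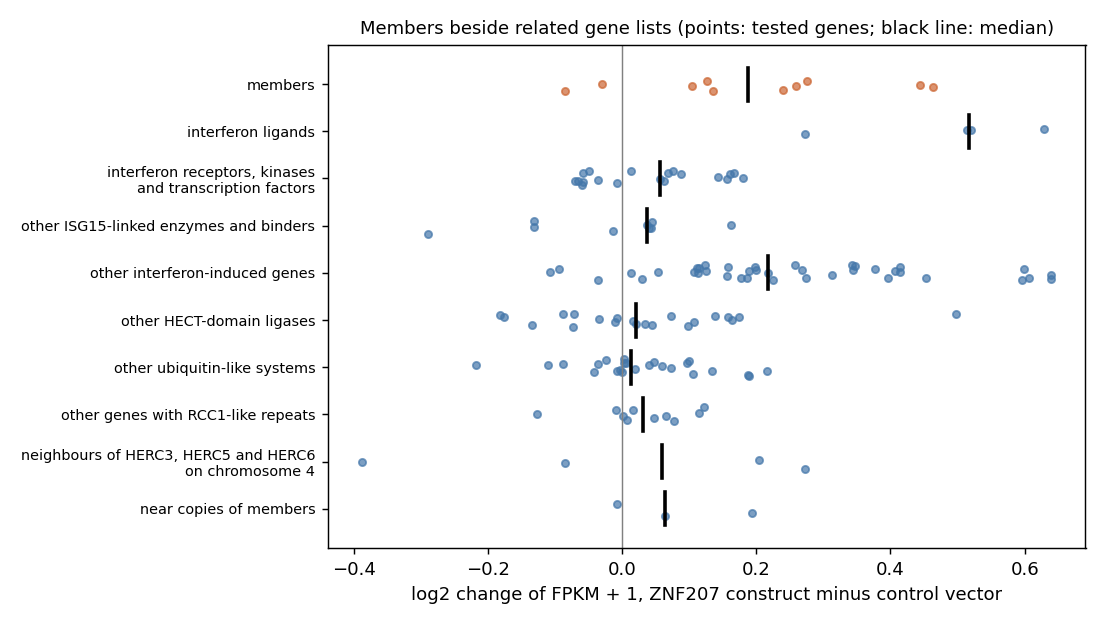
Log2 change on the log2(FPKM + 1) scale, ZNF207 construct minus control, of the tested genes in each list, 1 point per gene and the median as a line, with the 10 genes of the set beside them. The median is 0.52 for the ligands and 0.22 for the other interferon-induced genes, and lies between 0.01 and 0.06 for the receptors, the other ligases and enzymes, the RCC1-like genes and the chromosome 4 neighbours.

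The HERC cluster on chromosome 4 has non-HERC genes on both sides and within it. PYURF and PIGY lie between HERC5 and HERC3, and NAP1L5 lies within the span of HERC3. FAM13A, downstream of HERC3, was at 4.38, 5.29 and 4.33 FPKM in controls and at 3.33, 3.50 and 3.14 with the construct, a log2 difference of −0.39 (SE 0.115, limma adjusted p = 0.222). PPM1K, a mitochondrial phosphatase gene, had a log2 difference of 0.27 (limma adjusted p = 0.247), ABCG2, a drug efflux transporter gene, one of 0.20, and PYURF one of −0.08. PIGY and NAP1L5 were too low to be tested. Of the 4 tested neighbours, 2 had estimates above 0 and 2 below, and none was called. All ZNF207 libraries lay above all controls in 2 (PPM1K and ABCG2) and below them in 1 (FAM13A). Over all tested genes these shares were 7.61% and 10.4%. The median of the neighbours was 0.06, and 0.20 with the filter at FPKM 5, which FAM13A did not pass.

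Genes with a pattern close to that of HERC6 were found by the mean absolute difference of log2(FPKM + 1) values over the 6 libraries, after each gene was centred on its own mean. LAMP3, a lysosomal membrane protein gene, was closest (0.0234), and AL356056.2 (0.037), GMPR, a purine salvage enzyme gene (0.0428), and CD82, a tetraspanin gene (0.0439), were also among the 5 closest. LAMP3 was at 5.09, 5.17 and 5.31 FPKM in controls and at 8.04, 7.32 and 7.32 with the construct. By the same measure HERC5 was in place 123, UBE2L6 in place 141, HERC2 in place 211 and UBA7 in place 368, followed by ISG15 (1254), USP18 (1411), HERC4 (1895), HERC3 (7021) and HERC1 (9037). By this measure the giant ligase HERC2, whose value is uncertain for its copies, was nearer to HERC6 than ISG15 and USP18 were. The measure includes the group difference (0.24 for HERC2, 0.14 for ISG15 and 0.13 for USP18), so it is not separate from the change.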

How the data were processed

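The deposited table holds FPKM values per gene, 1 column per library, made by the authors. The submitters' processing notes name RSEM 1.3.1, Bowtie2, DESeq2 1.4.5 and hg38. No source used here says which tool did what, or gives the annotation, the strand setting or the handling of shared reads. The columns carry short names: those with NC were matched to the control vector and those with 207 to the ZNF207 construct, the last digit being the replicate. The table has 60658 rows. Of repeated symbols the most abundant row was taken; the 10 genes have 1 row each. Read depth is unknown, so no count test, interval or detection limit from read numbers is given. No pair of libraries in a group had over 8 tested genes with identical values.

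From these values, log2(FPKM + 1) was computed for genes at FPKM 1 or above in 3 or more libraries, and the groups (3 against 3) were tested by limma 3.58.1 in R 4.3.3 (variance trend, two-sided, Benjamini-Hochberg over all 13185 tested genes, threshold 0.05). The procedure was tested on simulated data. An exact permutation test of 3 against 3 cannot go below p = 0.1 and was not used. The genes, the 9 gene lists and the alternatives were chosen with earlier results of these data known. Named genes are the 10 genes, up to 3 called or otherwise the 2 genes of smallest p in each list, the 5 genes most like HERC6, and ligands, neighbours and near copies by level; some genes that this rule takes are not reported here. Positions are from GENCODE 29 and promoters from RefSeq (8 of 10 genes matched by symbol); transcripts were compared with BLAST 2.17.0. The 17 alternatives changed the pseudocount, filter, scaling, variance model, library weights, the rows kept, the replicate block, or left out a library.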

Additional observations from a re-analysis of the deposited data

How the results depend on the processing

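Across the 17 alternatives, the shift of HERC5 and HERC6 against HERC1 and HERC2 ran from 0.24 to 0.32, and that against HERC3 and HERC4 from 0.32 to 0.35. The count of the 10 genes called was 1 in the main analysis, 0 with no filter, 0 with no variance trend and 0 to 1 with single libraries left out (0 without control replicate 2, ZNF207 replicate 1 or ZNF207 replicate 3). The count over all genes was 28, and became 4 with no filter, 64 with a filter at FPKM 5, 18 after rescaling to TPM, 17 with median-of-ratios scaling, 5 without the variance trend and 4 to 36 with single libraries left out. The count of list genes called was 0, and became 3 with the filter at FPKM 5 (IFNL2, OASL and RSAD2), 1 with library weights (IFNL2) and 0 to 4 with single libraries left out (4 without control replicate 1, 1 without control replicate 3). With the replicate number as a block, 145 genes and 13 list genes were called, and HERC6 remained the 1 called gene of the set. The numbers are no pairing in the labels, and deviations of same-numbered libraries correlated at 0.136, 0.009 and 0.175. Signs turned with single libraries left out for HERC3 (−0.10 to 0.043; above 0 without control replicate 3, at 0.02, or ZNF207 replicate 2), HERC1 (−0.17 to 0.04; above 0 without ZNF207 replicate 2) and HERC2P2 (−0.037 to 0.165; below 0 without control replicate 3). The cause of these changes was not tested. With 3 libraries a group and unknown depth, differences the size of those of ISG15 and USP18 were not separable from the spread between libraries.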
